A study of Mus musculus with 10 samples.

Results

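The flagellum of a sperm cell is built around the axoneme, a bundle of microtubules that bends because dynein motors, the outer and inner arms, slide its doublets past each other. Dynein arm preassembly factors (Dnaaf genes) help to put the arms together in the cytoplasm. Radial spokes (Rsph genes) link the doublets to the central apparatus, and intraflagellar transport (Ift genes) carries parts along the growing axoneme. The Cfap genes encode further cilia and flagella associated proteins. Round spermatids are the haploid cells that come out of meiosis, and they start to grow the flagellum at this stage.

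The genes described here are the protein coding genes whose symbol starts with Cfap, Dnah (dynein heavy chains), Dnai (dynein intermediate chains), Dnaaf, Ift or Rsph followed by a number. The rule found 75 of the 55401 genes in the table, of which 21859 are protein coding. They are 33 Cfap genes, 15 Dnah genes, 14 Ift genes, 8 Rsph genes and 5 Dnaaf genes. It found 0 Dnai genes, since the table holds the outer arm intermediate chains under the older symbols Dnaic1 and Dnaic2. All 75 passed the filter on low counts, and 73 had a mean of at least 10 CPM, the count scaled by the library size of the sample.

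The cells came from adult males of the outbred CD1 stock of mice. Under isoflurane, the testes were in contact with water at 42 °C in the heated group or at 33 °C in the control group for 30 minutes, and both groups were anaesthetised and woke before they were killed. Each group had 5 mice with 1 library per mouse, made from total RNA depleted of ribosomal RNA. The comparison asks what a short heating of the testis does to the RNA of these cells.

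Total counts were 60623568 to 102086073 per library at 42 °C and 92311183 to 117723075 at 33 °C. The 75 genes took 1.89 to 2.43% of the counts at 42 °C and 2.07 to 2.57% at 33 °C. The shallowest library, 42 °C replicate 2, also stood apart with 16.2% of its counts on transposable elements. The label of the cells was checked on marker lists. All 18 round spermatid markers were detected, with a summed level of 2363 to 3580.2 CPM at 42 °C and 1878 to 3294 CPM at 33 °C. Markers of the neighbouring stages were also present, at 6150.2 to 12373 CPM at 42 °C and 6324 to 9157 CPM at 33 °C for 17 genes of elongating spermatids, and at 4203 to 6364 CPM at 42 °C and 5768 to 6854 CPM at 33 °C for 24 genes of spermatocytes. Most of the spermatocyte sum came from Ldhc and Hspa2. Ldhc had 2431.5 ± 393.8 CPM at 42 °C and 2653.1 ± 235.4 at 33 °C. Hspa2 had 1625.2 ± 323.4 CPM at 42 °C and 1828.4 ± 139.1 at 33 °C. Sertoli cell markers summed to 11.6 to 23.7 CPM at 42 °C and 7.28 to 18.8 CPM at 33 °C. The 9 markers of multiciliated duct cells, a source of other motile cilia, summed to 449 to 622 CPM at 42 °C and 416 to 725.0 CPM at 33 °C. Most of that was Deup1 (292 ± 35.8 CPM at 42 °C and 282 ± 67.4 at 33 °C) and Foxj1 (246 ± 33.1 CPM at 42 °C and 291 ± 61.1 at 33 °C), while 5 had a mean under 1 CPM, among them Mcidas, a regulator of multiciliated cells. The part of such cells in the values of the 75 genes was not tested. In bulk RNA, fewer cells of a type and less RNA per cell cannot be told apart.

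Promoters were searched because genes of cilia and flagella are known targets of RFX transcription factors, which bind a motif called the X-box. The 250 bases before the RefSeq gene start (build GRCm38) were available for 60 of the 75 genes and for 16802 protein coding genes. A 14-base form of the X-box, GTNNCC and GGNAAC with 2 bases between them, was present on either strand in 5 of the 60 (8.33%), against 225 of the 16802 (1.34%). The 5 genes were Cfap206, Cfap298, Dnaaf5, Ift22 and Ift57, and Ift22 held 2 copies. Their sites are printed 5′ to 3′ on the strand that reads as the motif, which is in capitals, with up to 15 bases on each side.

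Cfap206, chr4:34730207-34730244, strand opposite to the gene: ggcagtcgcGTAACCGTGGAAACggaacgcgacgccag
Cfap298, chr16:90935009-90935052, strand of the gene: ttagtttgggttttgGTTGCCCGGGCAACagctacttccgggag
Dnaaf5, chr5:139150202-139150234, strand opposite to the gene: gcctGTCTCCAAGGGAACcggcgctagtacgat
Ift22, chr5:136908102-136908145, strand of the gene: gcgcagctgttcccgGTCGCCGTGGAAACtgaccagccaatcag
Ift22, chr5:136908072-136908115, strand opposite to the gene: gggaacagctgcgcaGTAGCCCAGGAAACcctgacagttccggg
Ift57, chr16:49699192-49699235, strand opposite to the gene: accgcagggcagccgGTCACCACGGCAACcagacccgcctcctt

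In all, 8 patterns were searched on both strands. The left arm GTTGCC alone, which is part of the longer forms that begin with it, was found in 17 of the 60 (28.3%) and in 11.7% of the protein coding genes. With 2 bases between the arms in each case, GTTNCC followed by GG was found in 10 of the 60 (16.7%) and in 6.3% of the protein coding genes, and GTTGCC followed by GG in 6 (10.0%) and in 2.28%. GTTNCC followed by GGNAAC and GTTGCC followed by GGNAAC, both contained in the 14-base form, were each found in 1 gene, Cfap298, against 0.452% and 0.309% of the protein coding genes. The cAMP response element TGACGTCA, the site of the spermatid factor CREM, was found in Dnah6 and Ift57 (3.33%) and in 2.27% of the protein coding genes. Its core TGACGT was found in 4 genes (6.67%) and in 8.66%. A match describes the letters and not a bound site. The RefSeq starts can differ from the GENCODE M21 starts of the gene positions given elsewhere. By GENCODE M21, the printed Cfap298 stretch lies inside the gene, and those of Dnaaf5 and Ift57 run across the gene start.

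Most of the 75 genes were well expressed in these round spermatid libraries, which also held markers of the neighbouring stages. Levels are compared between genes as CPM per kb of exon, and their median was 31.7, against 2.09 for all protein coding genes tested and 11.9 for those with a mean of at least 10 CPM. Of the 75, 70 lay above the median of the protein coding genes. Dnaaf1, a preassembly factor (chromosome 8, 119575235 to 119598454, GRCm38; 584 exon bases overlap Taf1c on the other strand), had the highest level, at 478 ± 91.5 CPM per kb at 42 °C and 539 ± 47.8 at 33 °C (all levels are mean ± SD over 5 libraries). Cfap206, a protein at the base of the radial spokes in Tetrahymena (chromosome 4, 34688559 to 34730206), followed with 383 ± 64.6 CPM per kb at 42 °C and 415 ± 52.8 at 33 °C. Rsph1, a protein of the spoke head (chromosome 17, 31255019 to 31277383), had 338 ± 88.5 CPM per kb at 42 °C and 390.0 ± 65.3 at 33 °C. Cfap206 and Rsph1 differed by less than 1 SD at both temperatures, and Dnaaf1 stood above Cfap206 by more than either SD on this scale. The next genes, Cfap97 (142 ± 38.2 at 42 °C and 178 ± 21.3 at 33 °C) and Rsph6a (144 ± 26.6 at 42 °C and 169 ± 15.9 at 33 °C), lay below them by more than their SDs. Per kb of the longest coding transcript, Cfap206 had 424 ± 71.4 at 42 °C and 459 ± 58.3 at 33 °C. Dnaaf1 kept its values on that scale, and at 42 °C it stood above Cfap206 by less than either SD. At the other end, Rsph4a had 0.0949 ± 0.0302 CPM per kb at 42 °C and 0.104 ± 0.0244 at 33 °C.

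**Figure D1:**
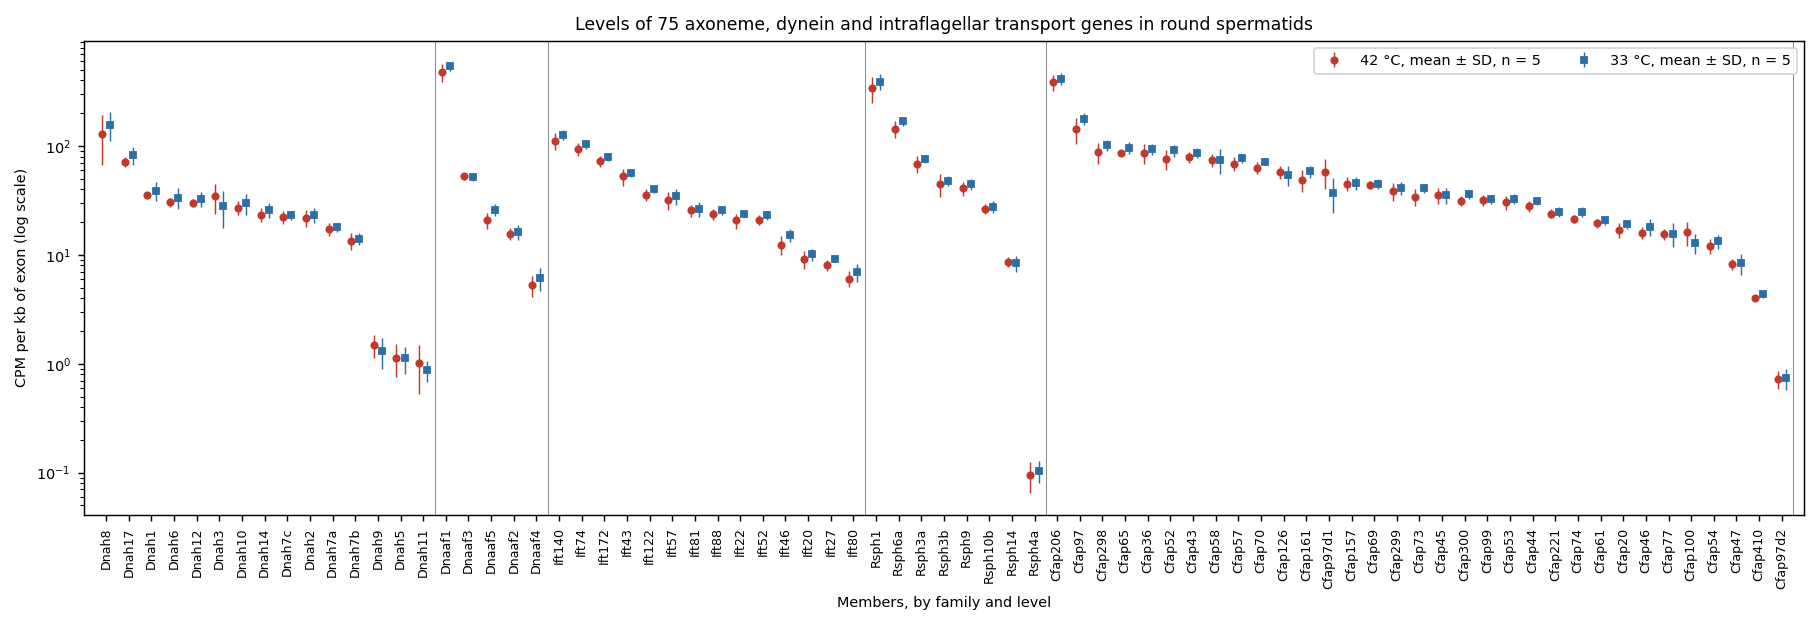
Level of each of the 75 genes in CPM per kb of exon on a log scale, grouped by family (Dnah, Dnaaf, Ift, Rsph, Cfap) and ordered by level, as mean ± SD of 5 libraries at 42 °C (circles) and 33 °C (squares). Dnaaf1, Cfap206 and Rsph1 are the highest, Dnah9, Dnah5, Dnah11, Cfap97d2 and Rsph4a are near the bottom, and the 2 temperatures lie close together for each gene.

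Outer arm heavy chains split by the kind of axoneme they are known from. Dnah8 and Dnah17, the outer arm motors of the sperm flagellum, were abundant, and Dnah5, Dnah9 and Dnah11, which serve in motile cilia of airway and other epithelia, were among the lowest of the 75. Dnah8 had 129 ± 62.0 CPM per kb at 42 °C and 157 ± 46.8 at 33 °C, and Dnah5 had 1.14 ± 0.379 at 42 °C and 1.12 ± 0.311 at 33 °C. In single libraries, Dnah8 was 59.8 to 158 times Dnah5 at 42 °C and 87.7 to 254 times at 33 °C. Dnah17 (72.0 ± 7.91 CPM per kb at 42 °C and 82.5 ± 15.8 at 33 °C) was 36.6 to 63.1 times Dnah9 at 42 °C and 42.8 to 91.0 times at 33 °C. It was 40.7 to 105 times Dnah11 at 42 °C and 64.0 to 123 times at 33 °C. The summed level of the flagellar pair over that of the 3 ciliary chains was 57.7 ± 16.9 at 42 °C and 75.9 ± 26.6 at 33 °C, with overlapping groups. The same held for the spoke head. Rsph6a, the testis form, was 1160 to 2139 times its ciliary paralog Rsph4a per kb at 42 °C and 1213 to 2797 times at 33 °C. Rsph4a had 12 to 50 counts per library, so few that these ratios are imprecise.

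Inner arm heavy chains were between these extremes. Dnah1 had 35.3 ± 2.86 CPM per kb at 42 °C and 38.7 ± 7.54 at 33 °C. Dnah2 and Dnah10, which form the heavy chain pair of the double-headed inner arm, had 21.8 ± 3.92 and 27.1 ± 3.84 CPM per kb at 42 °C, and 23.2 ± 3.74 and 29.7 ± 6.70 at 33 °C. Dnah7a, Dnah7b and Dnah7c are close copies on chromosome 1, as are Rsph3a and Rsph3b elsewhere, so the division of reads within each set is uncertain. With that limit, Dnah7c was 1.25 to 1.34 times Dnah7a per kb at 42 °C and 1.25 to 1.32 times at 33 °C. Rsph3a, a protein of the spoke stalk, was 1.35 to 1.69 times Rsph3b at 42 °C and 1.47 to 1.65 times at 33 °C.

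Among the transport genes, Ift140 of the IFT-A complex (chromosome 17, 25016085 to 25099495) had the highest level, with 111 ± 19.7 CPM per kb at 42 °C and 127 ± 12.9 at 33 °C. Ift74, an IFT-B protein that carries tubulin together with Ift81, followed with 93.5 ± 13.0 at 42 °C and 104 ± 9.6 at 33 °C. Ift81 itself had 25.6 ± 3.23 at 42 °C and 26.5 ± 4.34 at 33 °C. The lowest was Ift80, with 6.06 ± 1.03 at 42 °C and 6.92 ± 1.26 at 33 °C. Per kb of the longest coding transcript Ift20 was lowest instead, with 12.2 ± 2.32 at 42 °C and 13.5 ± 1.73 at 33 °C, against 18.5 ± 3.16 at 42 °C and 21.1 ± 3.86 at 33 °C for Ift80.

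No gene of the 75 passed the test between the temperatures. In the edgeR quasi-likelihood test over all 26025 features, 0 were higher at 42 °C and 0 lower at an adjusted p of 0.05, where 0.0884% of all features were called higher and 0.00384% lower (0.0922% in either direction). DESeq2 and limma voom called 0 of the 75 as well, where they called 1.11% and 0.588% of all features. The limma voom fit also gave each library its own weight, which the edgeR and DESeq2 fits did not. At an unadjusted p under 0.05 edgeR had 2 of the 75, DESeq2 1 and limma voom 12. The shares of all features were 11.5% for edgeR, 12.9% for DESeq2 and 19.2% for limma voom, and those of protein coding genes were 10.2% for edgeR and 17.0% for limma voom. The 5 values at 42 °C and the 5 at 33 °C overlapped for each of the 75, while they did not for 1.7% of the protein coding genes tested. Of the 95% intervals of the edgeR fit, 74 of the 75 lay within a doubling and 61 within a 1.5-fold change. Each interval was derived from the fold change and the statistic of the test. It covers a single gene, so the intervals do not jointly bound what could have been missed over the 75.

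The estimates leaned to lower values at 42 °C by a small amount, as did those of other well expressed genes. The log2 fold change was below 0 for 65 of the 75 (86.7%), with a median of -0.13. It was below 0 for 59.6% of all protein coding genes tested and for 69.8% of those with a mean of at least 10 CPM, whose median was -0.12. Over all features the median was -0.01. Without 42 °C replicate 2, 60 of the 75 were negative and the median was -0.10. With library totals in place of TMM scaling, 53 were negative and the median was -0.08. By family the median was -0.08 for Dnah, -0.17 for Dnaaf, -0.15 for Ift, -0.12 for Rsph and -0.11 for Cfap. Leaving out 1 library moved each of these medians by more than 1.5 times in at least 1 case, but not in each case given here. Without 42 °C replicate 2 they were -0.15 for Dnah, -0.07 for Dnaaf, -0.09 for Ift, -0.03 for Rsph and -0.09 for Cfap. Without 33 °C replicate 1 the Dnah median was 0.01, and without 33 °C replicate 2 the medians were -0.02 for Dnah, -0.11 for Dnaaf, -0.08 for Ift, -0.04 for Rsph and -0.06 for Cfap. Without 33 °C replicate 5 the median was -0.04 for Cfap and -0.11 for Dnaaf. The Dnah median was -0.05 without 42 °C replicate 1 and -0.04 without 42 °C replicate 3, and the Dnaaf median was -0.09 without 42 °C replicate 4. Each of the 14 Ift genes had a negative value, from -0.29 to -0.05, while 13 did with library totals, with limma voom, without 42 °C replicate 2 or without 33 °C replicate 2, and 12 without 33 °C replicate 5. Over the same libraries, 17 of 24 spermatocyte markers were negative (median -0.16), 16 of 18 round spermatid markers were positive (median 0.34) and 15 of 17 elongating spermatid markers were positive (median 0.31). The part of these stages in the values of the 75 genes was not tested.

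**Figure D2:**
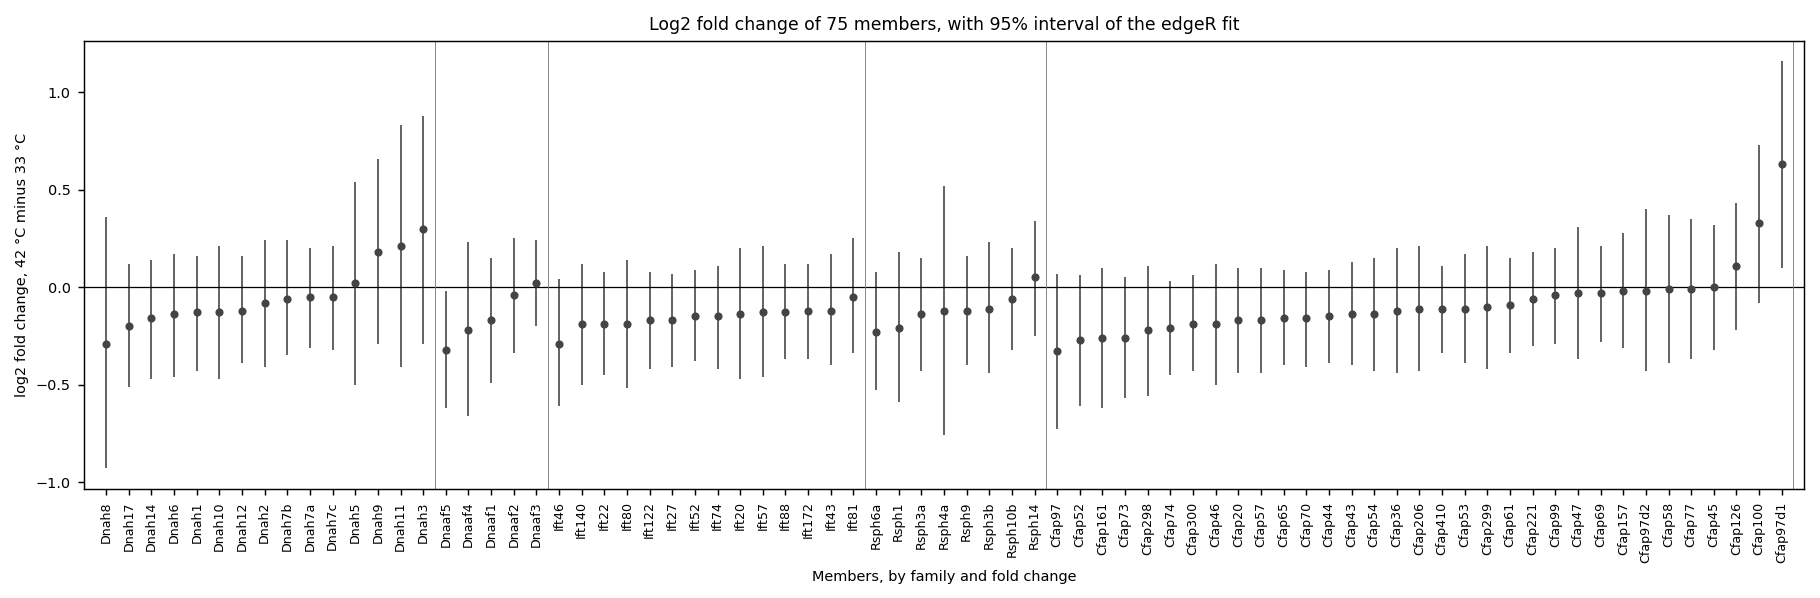
Log2 fold change (42 °C minus 33 °C) of each of the 75 genes with the 95% interval of the edgeR fit, grouped by family and ordered by value. Most points lie just under 0, Cfap97d1 is the highest at 0.63, and the intervals of Dnah8, Dnah11, Dnah3 and Rsph4a are among the widest.

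Dnah8 (chromosome 17, 30624354 to 30877365) was the member with the largest share of the counts. Counts rise with transcript length, and Dnah8 had 26.8 kb of exon, the most of the 75 genes. Per kb of exon Dnah8 ranked 6 among the 75. It had the highest count of all genes in 2 libraries at 42 °C and in 2 at 33 °C, and took 0.223 to 0.675% of all counts at 42 °C and 0.259 to 0.541% at 33 °C. At 42 °C replicates 1 to 5 had 2447.5, 6066, 2342, 2261 and 4197 CPM, against 5509.8, 5571, 3513.5, 3734 and 2782.5 CPM at 33 °C. Replicates 2 and 5 at 42 °C were high and the other 3 were below each library at 33 °C. The edgeR log2 change was -0.29 (SE 0.30) with an adjusted p of 0.667 (0.107 to 0.939 over all alternatives), and the change was -0.59 without 42 °C replicate 2. The spread was wide, with a coefficient of variation of 48.0% at 42 °C and 29.7% at 33 °C, where the median of the 75 genes was 15.1% at 42 °C and 12.6% at 33 °C.

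Dnah17 (chromosome 11, 118021723 to 118130634) had 1028, 1251, 1055.5, 1143 and 1327 CPM at 42 °C and 1736, 1388, 1126, 1109 and 1290.3 CPM at 33 °C. Its groups overlapped, with the highest value in 33 °C replicate 1, with a log2 change of -0.20 (SE 0.14) and an edgeR adjusted p of 0.561. Dnah3, an inner arm chain (chromosome 7, 119922671 to 120095280; 1506 exon bases overlap Lyrm1 on the other strand), had 352, 627, 345.5, 679.9 and 453 CPM at 42 °C and 498.5, 396, 260.5, 253 and 590.1 CPM at 33 °C. It was highest in replicate 4 at 42 °C and replicate 5 at 33 °C, with a log2 change of 0.30 (SE 0.27) and an edgeR adjusted p of 0.625. Of the ciliary chains, Dnah5 had a log2 fold change of 0.02, Dnah9 of 0.18 and Dnah11 of 0.21, and these turned to -0.41, -0.03 and -0.26 with limma voom. None passed the edgeR test.

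The 2 genes at an unadjusted p under 0.05 were Cfap97d1 and Dnaaf5. Cfap97d1, which mouse sperm need to keep the axoneme intact (chromosome 11, 101984279 to 101992264), had 38.1, 41.2, 35.1, 70.1 and 46.2 CPM at 42 °C and 22.9, 25.5, 36.1, 19.8 and 44.7 CPM at 33 °C. Its highest value at 42 °C was in replicate 4 and its highest at 33 °C in replicate 5, and the groups overlapped. edgeR gave a log2 change of 0.63 (SE 0.25, 95% interval 0.10 to 1.16) with an adjusted p of 0.397 (0.0804 to 0.792 over all alternatives). The same 2 libraries had the highest summed level of round spermatid markers, 3580.2 CPM at 42 °C and 3294 CPM at 33 °C. Without 42 °C replicate 4 the log2 change was 0.43 for Cfap97d1 and 0.15 for Dnah3, and without 33 °C replicate 5 it was 0.87 and 0.53. The part of these markers in the values of Cfap97d1 and Dnah3 was not tested.

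Dnaaf5, a preassembly factor (chromosome 5, 139150223 to 139186510), had 76.4, 54.7, 89.1, 69.0 and 76.4 CPM at 42 °C and 96.1, 108.0, 80.1, 85.0 and 86.4 CPM at 33 °C. Of the libraries at 42 °C, replicate 3 alone was above the lowest at 33 °C. edgeR gave a log2 change of -0.32 (SE 0.14, 95% interval -0.62 to -0.02) with an adjusted p of 0.428 (0.241 to 0.792 over all alternatives). Without 42 °C replicate 2 the change of Dnaaf5 was -0.23, and without 33 °C replicate 2 it was -0.21. Dnaaf1 had 1558, 945.0, 1589.5, 1306 and 1346 CPM at 42 °C and 1435, 1632, 1329.6, 1576 and 1636 CPM at 33 °C. Replicate 2 at 42 °C was the lowest of the 10 libraries, and the other 9 overlapped. The log2 change of Dnaaf1 was -0.17 (SE 0.15) and -0.07 without that library. Dnaaf3 had a log2 change of 0.02 and Dnaaf2, a co-chaperone, of -0.04. On the same strand, exons of Gm49383 and Gm49384 overlap Dnaaf2, by 1457 bases summed over both genes, of its 3390 exon bases. Exons of Tnni3 overlap Dnaaf3 by 86 of its 2224 exon bases. The counts of Dnaaf2 and Dnaaf3 may therefore share reads with these genes.

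**Figure D3:**
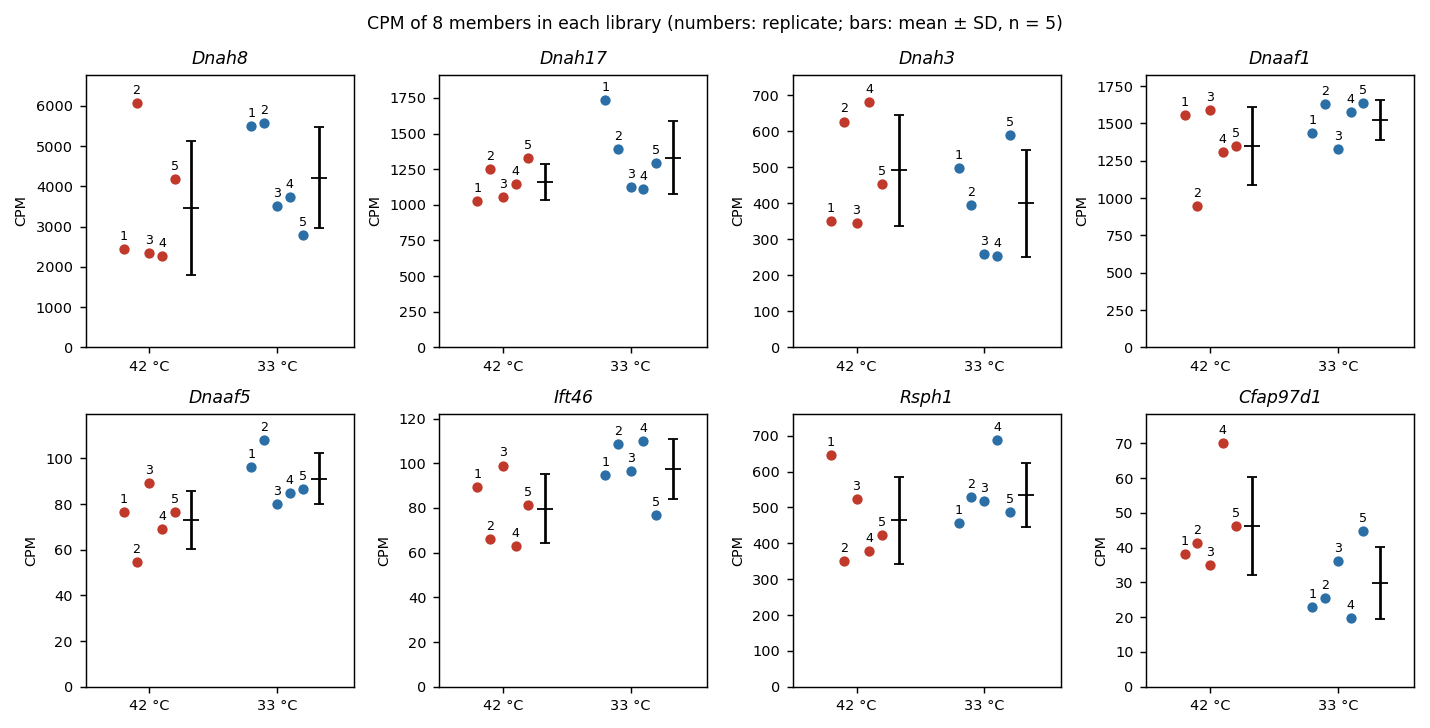
CPM of 8 of the 75 genes in each library at 42 °C (left) and 33 °C (right), with replicate numbers over the points and bars for mean ± SD (n = 5). The groups overlap in each panel, Dnah8 is spread over 2261 to 6066 CPM at 42 °C, and replicate 2 is the lowest library at 42 °C for Dnaaf1, Dnaaf5 and Rsph1.

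In the transport and spoke families, the gene of smallest p was Ift46 (IFT-B; chromosome 9, 44767908 to 44793447) with 89.4, 65.9, 99.0, 63.0 and 81.5 CPM at 42 °C and 94.7, 108.6, 96.4, 110.1 and 77.0 CPM at 33 °C. Replicates 2 and 4 at 42 °C lay below all libraries at 33 °C, and the log2 change was -0.29 (SE 0.15) with an edgeR adjusted p of 0.468. Rsph1 had 647, 351, 523, 377 and 422.5 CPM at 42 °C and 456, 529, 517, 687 and 486.5 CPM at 33 °C. The log2 change was -0.21 (SE 0.18) with an edgeR adjusted p of 0.615, and replicate 1 at 42 °C was second to replicate 4 at 33 °C. Without 42 °C replicate 2 the change of Rsph1 was -0.12. Of the Cfap genes with the smallest p, Cfap97 had -0.33 (-0.20 without 42 °C replicate 2), Cfap73, an inner arm modifier known from Chlamydomonas, -0.26, and Cfap74, of the central apparatus, -0.21. Cfap100, the partner of Cfap73 in Chlamydomonas, had 0.33. Cfap43 and Cfap44, which tether the double-headed inner arm to the doublet, had -0.14 and -0.15, and Cfap65, Cfap58 and Cfap69 had -0.16, -0.01 and -0.03.

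The heavy chains and the other families moved apart in some libraries and together in others. Deviations were taken on the log2 scale from the mean of each gene at 33 °C. Those at 42 °C therefore also hold the difference between the temperatures. In 42 °C replicate 2 the median deviation was 0.27 for Dnah, against -0.14 for Dnaaf, -0.41 for Ift, -0.50 for Rsph and -0.33 for Cfap. In 33 °C replicate 1 it was 0.37 for Dnah, and between -0.07 and 0.03 for the other families. Replicates 1 and 3 at 42 °C were the reverse, with -0.19 and -0.25 for Dnah and between -0.04 and 0.07 for the others. The families lay closer together in 42 °C replicate 4, with -0.16 for Dnah and -0.22 to -0.12 for the others, in 33 °C replicate 2, with 0.06 and 0.07 to 0.11, and in 33 °C replicate 3, with -0.22 and -0.19 to -0.06. In 42 °C replicate 5 Dnah had 0.02 and the others -0.19 to -0.13. In 33 °C replicate 4 Dnah had -0.15 and the others -0.01 to 0.06, and in 33 °C replicate 5 Dnah had -0.02 and the others -0.07 to 0.12.

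**Figure D4:**
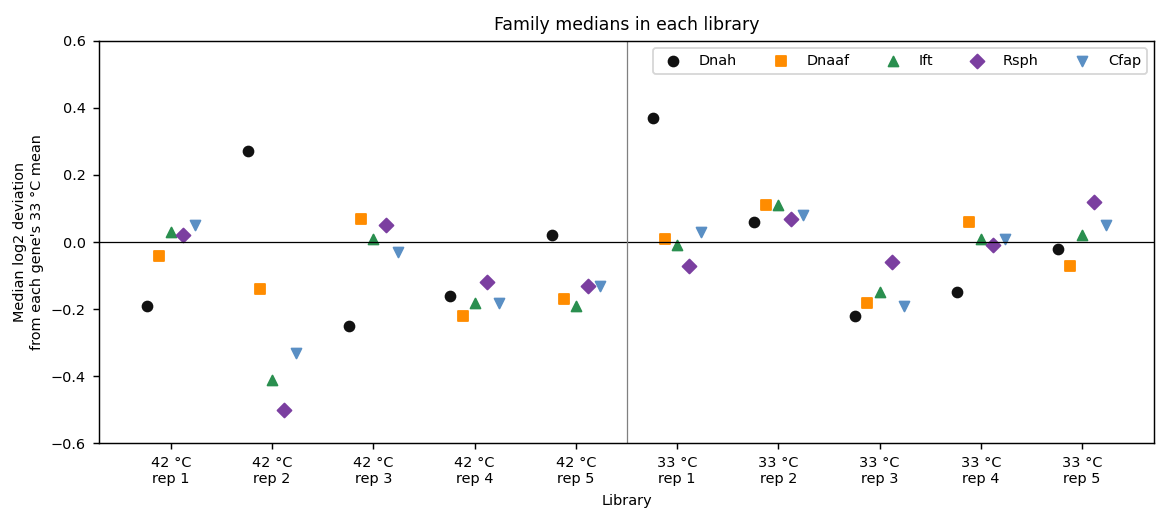
Median log2 deviation of each family from the 33 °C mean of its genes, in each library at 42 °C (left) and 33 °C (right). Dnah (black circles) stands above the other families in 42 °C replicate 2 and 33 °C replicate 1 and below them in 42 °C replicates 1 and 3.

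The heavy chains are also among the longest transcripts of the set, with 12.0 to 26.8 kb of exon against a median of 4.12 kb for the 75 genes. Across the 75 genes the Spearman rank correlation of the deviation with exon length was -0.62, 0.51, -0.67, 0.00 and 0.48 in replicates 1 to 5 at 42 °C, and 0.75, -0.25, -0.07, -0.33 and -0.25 at 33 °C. Without the heavy chains it ran from -0.38 to 0.23 at 42 °C and from -0.27 to 0.54 at 33 °C. Over protein coding genes with a mean of at least 10 CPM it ran from -0.34 to 0.15 at 42 °C and from -0.16 to 0.28 at 33 °C. Genes of one library share its depth and its RNA, so these are descriptions with no test. Length and family cannot be told apart for the heavy chains, which are all long, and the part of length in their values was not tested.

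**Figure D5:**
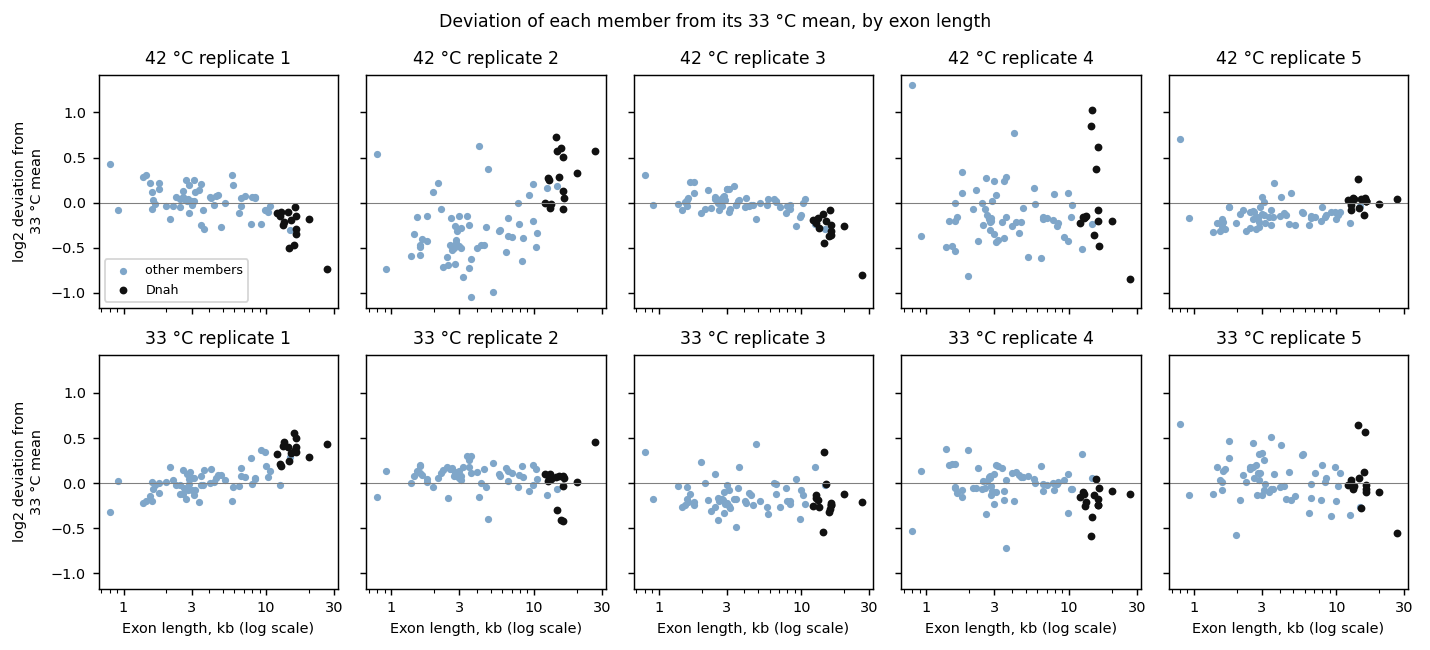
Log2 deviation of each of the 75 genes from its 33 °C mean against exon length in kb (log scale), 1 panel per library, with libraries at 42 °C above and at 33 °C below and Dnah genes in black. Points climb to the right in 42 °C replicates 2 and 5 and 33 °C replicate 1 and fall to the right in 42 °C replicates 1 and 3.

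No tested gene of the partner lists passed the test. The 9 lists hold 122 genes that are not among the 75. Of these, 121 were tested, and edgeR called 0 higher and 0 lower, against 0.0922% of all features called. At an unadjusted p under 0.05 edgeR had 11, where it had 11.5% of all features and 10.2% of protein coding genes. The change was negative for 97 (80.2%), with a median of -0.13. Of protein coding genes with a mean of at least 10 CPM, 69.8% were negative, with a median of -0.12. By list, with 4 of the 75 genes counted in where a list holds them, the median was -0.11 for outer arm partners, -0.11 for the central apparatus, -0.15 for the nexin-dynein regulatory complex and rulers, -0.06 for radial spoke partners and -0.22 for preassembly partners. It was -0.06 for the inner proteins of the doublets, -0.18 for transport partners, -0.13 for the BBSome and -0.02 for transcription regulators. The gene of smallest p in each list was Ccdc114 (-0.35), an outer arm docking protein, Lrguk (-0.25), Ccdc40 (-0.28), a ruler of the axoneme repeat, Morn3 (0.51), Pih1d3 (0.52), Tekt5 (0.46), a tektin, Ttc26 (-0.26), an IFT-B protein, Bbs5 (0.38) and Mybl1 (-0.44).

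The intermediate chains, Foxj1 and the RFX genes of the regulator list were singled out after their values were seen. Dnaic1 had 141 ± 22.3 CPM at 42 °C and 159.7 ± 10.2 at 33 °C, and its log2 change was -0.18 (SE 0.12) with an edgeR adjusted p of 0.537. Dnaic2 had 219 ± 68.3 CPM at 42 °C and 283 ± 39.1 at 33 °C (log2 change -0.37, SE 0.21, edgeR adjusted p of 0.483). Rfx2, the X-box factor that mouse spermatids need to form flagella, had 522 ± 85.4 CPM at 42 °C and 607 ± 50.7 at 33 °C (log2 change -0.22, SE 0.13, edgeR adjusted p of 0.498). Of the other RFX genes, Rfx1 had a log2 change of 0.04 (SE 0.19), Rfx3 of 0.09 (SE 0.14) and Rfx4 of 0.11 (SE 0.14). Foxj1, the master regulator of motile cilia, had 246 ± 33.1 CPM at 42 °C and 291 ± 61.1 at 33 °C (log2 change -0.25, SE 0.16, edgeR adjusted p of 0.517). Of the 60 genes whose promoters were searched, 5 matched the 14-base form of the X-box. Their log2 fold changes were -0.11 for Cfap206, -0.22 for Cfap298, -0.32 for Dnaaf5, -0.19 for Ift22 and -0.13 for Ift57, none past the edgeR test.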

How the data were processed

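The authors deposited 1 table of raw counts, not normalized, for genes and transposable element subfamilies. The deposited values are whole numbers whose sums differ between libraries. DRAGEN, Trim Galore and cutadapt and the builds GRCm38 and mm10 are named, per the submitters' processing notes. No source used here gives the counting tool, its strand setting or how reads with several alignments were treated. Of the 75 genes, 30 overlap exons on the opposite strand and 6 on the same strand, and their reads may not be told apart.

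The 75 genes, the gene lists and the tests were chosen with earlier results of these data known. Counts were tested with edgeR 4.0.16 (quasi-likelihood, TMM over all rows, filterByExpr with a minimum count of 10 and total of 15, group as the sole term) in R 4.3.3, with Benjamini-Hochberg adjustment over 26025 features and a threshold of 0.05. Alternatives used DESeq2 1.42.0 and limma 3.58.1, the latter as voom with quality weights for the libraries. The fit was also run on simulated counts, drawn independently for each feature, with known changes larger than those of the 75 genes. That run held no shifts shared across a library, so it cannot show how the fit handles such shifts or smaller changes. CPM use TMM-scaled library sizes, and lengths are exon unions of GENCODE M21, whose positions matched 99.4% of 55141 shared identifiers and 74 of the 75 genes. Genes were named from a list of fixed members, the 5 of smallest p in each direction and the 5 of highest level, and per-library values are printed for 8 of them. Summed levels carry no test, although a permutation test was planned, since no p is given for a score over chosen genes. The labels give N = 5 mice per group, and the p-values set the difference between groups against the spread between mice. The closest pair, 42 °C replicates 1 and 3, still differed beyond sampling noise (chi-square per degree of freedom 13.9).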

Additional observations from a re-analysis of the deposited data

Results flagged for a closer look

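Among 104 groups of 5 libraries, 5 held a library whose gap to the next one, relative to the range of the group, was above Dixon's critical value of 0.71, and chance flags about 1 in 20 groups. Dnah7a, an inner arm heavy chain, had 273 CPM in its highest library at 42 °C, which was replicate 2. At 33 °C the highest library was replicate 1 for Dnah10, with 665 CPM, and for Dnah7b, with 340.5 CPM. The lowest library at 33 °C stood apart for Cfap44, with 227 CPM in replicate 3, and for Rsph4a, the ciliary spoke head gene, with 0.224 CPM in replicate 4.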

How the results depend on the processing

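Under 18 alternatives, 0 of the 75 genes passed the threshold in either direction; the lowest adjusted p was 0.0804, with limma voom. The median over the 75 genes was -0.16 to -0.06 when 1 library was left out, and -0.13 with the replicate block. The replicate numbers did not pair the libraries (correlation of deviations from -0.56 to -0.13), and 0 of the 75 genes were called with the block. The limma voom fit changed both the test and the weight of each library. With limma voom the median was -0.03 for Dnaaf, -0.26 for Dnah, -0.02 for Rsph, -0.09 for Ift and -0.08 for Cfap. The part of the test and of the weights in these medians was not tested. Leaving out 1 library gave medians of -0.15 to 0.01 for Dnah, -0.23 to -0.07 for Dnaaf, -0.20 to -0.08 for Ift, -0.17 to -0.03 for Rsph and -0.15 to -0.04 for Cfap. Of 45 named genes, 14 changed sign in some alternative, none of them past the threshold. Cfap58 was 0.0023 with DESeq2 size factors and the DESeq2 test, 0.03 with scaling from genes alone and with no filter, 0.05 with library totals, 0.08 with limma voom, and 0.02 with a mean of at least 1 CPM and with the block. Cfap69 was 0.01 with scaling from genes alone, library totals, limma voom and no filter. Dnaaf2 was 0.01 with library totals, 0.09 with limma voom and 0.0014 with no filter. With library totals Dnah7a was 0.01, Dnah7b 0.002, Dnah7c 0.01 and Ift81 0.0039, and Ift81 was 0.06 with limma voom. Leaving out 1 library gave -0.10 to 0.18 for Cfap58, -0.07 to 0.06 for Cfap69, -0.09 to 0.08 for Dnaaf2, -0.01 to 0.09 for Dnaaf3, -0.20 to 0.02 for Dnah10, -0.07 to 0.37 for Dnah11, -0.19 to 0.01 for Dnah2, -0.15 to 0.19 for Dnah5, -0.14 to 0.01 for Dnah7a, -0.17 to 0.02 for Dnah7b, -0.14 to 0.01 for Dnah7c, -0.11 to 0.08 for Ift81 and -0.26 to 0.03 for Rsph4a. With limma voom Dnah11 was -0.26, Dnah5 -0.41 and Dnah9 -0.03. The planned permutation and sign-flip tests of summed levels were not run. Counts over all features were 23 higher and 1 lower in edgeR, 257 and 31 with DESeq2, and 124 and 29 with limma voom. They were 73 and 3 with no filter, 2 and 0 with a mean of at least 1 CPM, and 4 and 0 with the block. At such small shares, 0 calls among 75 genes cannot show that these genes are steadier than others.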

Other observations

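By the longest coding transcript in place of the exon union, Dnah8 had 208 ± 99.6 CPM per kb at 42 °C and 253 ± 75.2 at 33 °C, and was the fourth highest of the 75 genes. On that scale Dnah8 was 96.2 to 254 times Dnah5 at 42 °C and 141.0 to 408 times at 33 °C. The median coefficient of variation of the 75 genes, 15.1% at 42 °C and 12.6% at 33 °C, was near that of protein coding genes with a mean of at least 10 CPM, 16.3% at 42 °C and 12.9% at 33 °C.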
